A study of Mus musculus with 18 samples.

Results

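The genes described here are those of glycolysis, glycogen turnover and the switch on pyruvate dehydrogenase: glucose transporters, hexokinases, phosphofructokinases and the bifunctional enzymes that regulate them, the later glycolytic enzymes, lactate dehydrogenases, glycogen synthase and phosphorylases with their regulators, and the kinases and phosphatase of pyruvate dehydrogenase. A list of 38 such genes was chosen by name, with earlier results of these data known. A probe set counted as a member's where the array annotation gave it that gene symbol and no other. The further gene lists below were chosen with the same knowledge. The share of a list that passed, beside that of all genes, is therefore a description and not a test. Of the 38, 35 had at least 1 such probe set (58 probe sets of 35382 on the array), among 18781 genes in all. Gpi1, Eno1 and Pfkfb1 were not analysed here, and 27 probe sets that a member shares with another gene were left out.

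The study compared transgenic mice carrying TN-XXL, a genetically encoded fluorescent calcium indicator built on troponin C, with their wild type littermates. All mice were of the strain C57BL/6, and total RNA of 3 tissues, skeletal muscle, heart muscle and hippocampus, was hybridised to 1-colour Affymetrix arrays. Each of the 6 groups of genotype and tissue had 3 arrays, 18 in all; the transgenic arrays are titled +/+. The promoter that drives the indicator, the age and sex of the mice, the muscle that was dissected and the time of day were not stated in the labels. Nothing in the labels says whether the 3 arrays of a group came from separate mice, so that each p-value measures the spread between these samples, which may be technical.

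Glycolysis breaks glucose down to pyruvate and yields ATP without oxygen, and working muscle feeds it from glycogen, which phosphorylase releases and glycogen synthase lays down. Phosphofructokinase is its main control point, and the bifunctional PFKFB enzymes set the amount of the sugar bisphosphate that activates it. Pyruvate dehydrogenase passes pyruvate to the mitochondria; the PDK kinases switch it off by phosphorylation, as in fasting muscle, and the PDP phosphatases switch it on. Many steps have isozymes used by different tissues, such as a muscle and a brain form of phosphorylase, aldolase and enolase.

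Values are deposited log2 signals, on which a difference of 1 is a 2-fold change. The median array signal lay between 2.44 and 2.49 in skeletal muscle, 2.61 and 2.63 in heart and 3.68 and 3.71 in hippocampus, and arrays of 1 group correlated at 0.982 to 0.993 over all probe sets. The tissue labels matched their markers. The mean of 7 skeletal muscle markers was 11.28 to 11.42 on the skeletal muscle arrays and at most 4.26 elsewhere, that of 7 heart markers was 9.74 to 10.30 in heart and at most 4.0 elsewhere, and that of 6 neuronal markers was 9.94 to 10.05 in hippocampus and at most 3.28 elsewhere. The number of arrays limits the precision, and signals near an array's median are close to background, where a fold change is understated.

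In skeletal muscle, the transgenic arrays had more RNA of the gluconeogenic enzyme Fbp2, of the pyruvate dehydrogenase kinase Pdk3 and of the glycolytic enzyme Pgk1, and less of the glycogen targeting subunit Ppp1r3c, the phosphofructokinase regulator Pfkfb3 and the kinase Pdk4. These 6 of 35 members passed the test, which is 17.1% of the members, beside 11.5% of all 18781 genes. The 3 that rose compare with 5.44% of all genes that rose, and the 3 that fell with 6.1%. The test was limma's moderated test in a model with 6 group means, with Benjamini-Hochberg adjustment over all probe sets and a threshold of 0.05. The median difference of the 35 members was 0.05, beside 0.01 over all genes, and 23 members lay above 0 and 12 below. In 17 members the 3 transgenic arrays lay wholly above (10) or wholly below (7) the 3 wild type arrays, 48.6% of the members beside 26.9% of all genes (14% above and 12.9% below).

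Fbp2, the muscle isozyme of fructose bisphosphatase, which runs the phosphofructokinase step backwards, read 6.27, 6.36 and 6.32 on the wild type muscle arrays and 7.98, 7.89 and 7.96 on the transgenic ones. The groups were far apart, and the arrays within each were close together. The difference was 1.63 ± 0.09 (SE, n = 3 per group), a 3.09-fold rise, with a limma adjusted p of 5.34e-08. Pdk3, a pyruvate dehydrogenase kinase best known from brain and testis, read 2.91, 2.94 and 2.72 in wild type and 4.74, 4.69 and 4.66 in transgenic muscle. The wild type values stood just above the array medians, where folds are understated, and the gene rose by 1.84 ± 0.11, 3.58-fold (limma adjusted p = 8.87e-08). Pgk1, phosphoglycerate kinase, which makes the first ATP of the pathway, read 9.94, 10.12 and 9.96 in wild type and 10.52, 10.48 and 10.63 in transgenic muscle, again with no overlap. It rose by 0.54 ± 0.08, 1.45-fold (limma adjusted p = 2.97e-04). Its 3 probe sets gave 0.49 to 0.54 and all passed, but Pgk1 has near-identical copies in the genome, which these probe sets may also detect.

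The genes that fell were more variable between arrays. Ppp1r3c, the protein that brings protein phosphatase to glycogen and so favours its synthesis, read 9.67, 9.73 and 10.24 in wild type and 7.85, 8.50 and 9.10 in transgenic muscle. All transgenic arrays were lower, and they spread over more than 1 log2 unit; the gene fell by 1.40 ± 0.25, 2.63-fold, with a limma adjusted p of 0.00239. Pfkfb3, the PFKFB isozyme with the strongest kinase activity, read 8.62, 9.11 and 9.25 in wild type and 8.26, 8.14 and 8.0 in transgenic muscle. It fell by 0.86 ± 0.16, 1.82-fold (limma adjusted p = 0.00281). Pdk4, the kinase that rises in fasting muscle, read 10.31, 10.51 and 11.09 in wild type and 10.06, 9.68 and 9.69 in transgenic muscle, and the groups came close to each other without overlap. It fell by 0.83 ± 0.18, 1.78-fold (limma adjusted p = 0.00897). With the 6 skeletal muscle arrays alone in the fit, Fbp2, Pdk3 and Pgk1 still passed (Pgk1 at 0.0489), while Ppp1r3c, Pfkfb3 and Pdk4 did not, with limma adjusted p of 0.0945, 0.0689 and 0.131.

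**Figure D1:**
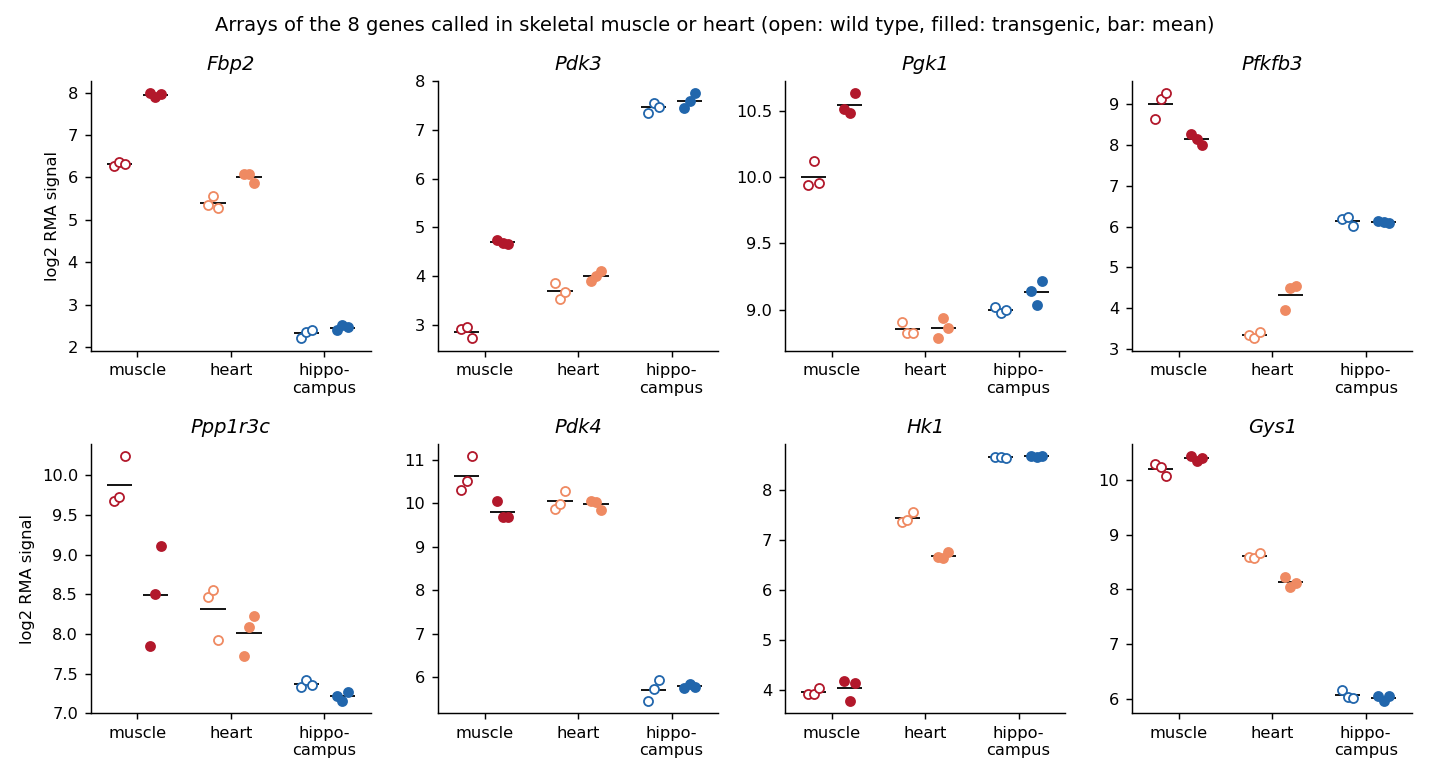
Log2 RMA signal of the 8 members that passed the test in skeletal muscle or heart, 1 point per array for each group of genotype and tissue, with a bar at the group mean. In skeletal muscle the transgenic points of Fbp2 (7.89 to 7.98) and Pdk3 (4.66 to 4.74) lie well above the wild type points, those of Pfkfb3 lie below in muscle and above in heart, and no difference between the hippocampus points passed the test. The vertical scale differs between panels.

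The other 29 members did not pass in skeletal muscle. Nearest to the threshold were Pfkfb4, another PFKFB isozyme, with a difference of -0.47 ± 0.14 (limma adjusted p = 0.0553), and Hk2, the insulin-regulated hexokinase of muscle, with 0.38 ± 0.12 (limma adjusted p = 0.0581). Both passed with probe sets of 1 symbol alone (limma adjusted p = 0.0250 for Pfkfb4 and 0.0299 for Hk2). They also passed with the mean of a gene's probe sets (0.0235 and 0.0287) and without dim probe sets (0.0367 and 0.0374). With skeletal muscle arrays alone neither passed. In both the groups did not overlap: Pfkfb4 read 4.95, 5.26 and 5.26 in wild type and 4.43, 4.88 and 4.75 in transgenic muscle, and Hk2 read 7.80, 7.92 and 7.63 against 7.98, 8.18 and 8.32. Among the abundant enzymes of the muscle pathway, the muscle phosphofructokinase Pfkm (0.17), glycogen synthase Gys1 (0.20), the mutase Pgam2 (0.32), Pdk2 (0.10), Ldha (0.08) and Gapdh (0.06) also had all transgenic arrays above all wild type arrays, with limma adjusted p from 0.15 (Gys1) to 0.654 (Gapdh). For Gapdh the groups nearly touched, with 12.4956 on the lowest transgenic and 12.4951 on the highest wild type muscle array. The insulin-responsive glucose transporter Slc2a4 (-0.17), the phosphorylase kinase subunit Phkg1 (-0.16) and Pfkfb2 (-0.24) had all transgenic arrays below. The muscle phosphorylase Pygm (0.04), Aldoa (0.01), Eno3 (0.13) and Pkm (0.06) overlapped between genotypes.

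**Figure D2:**
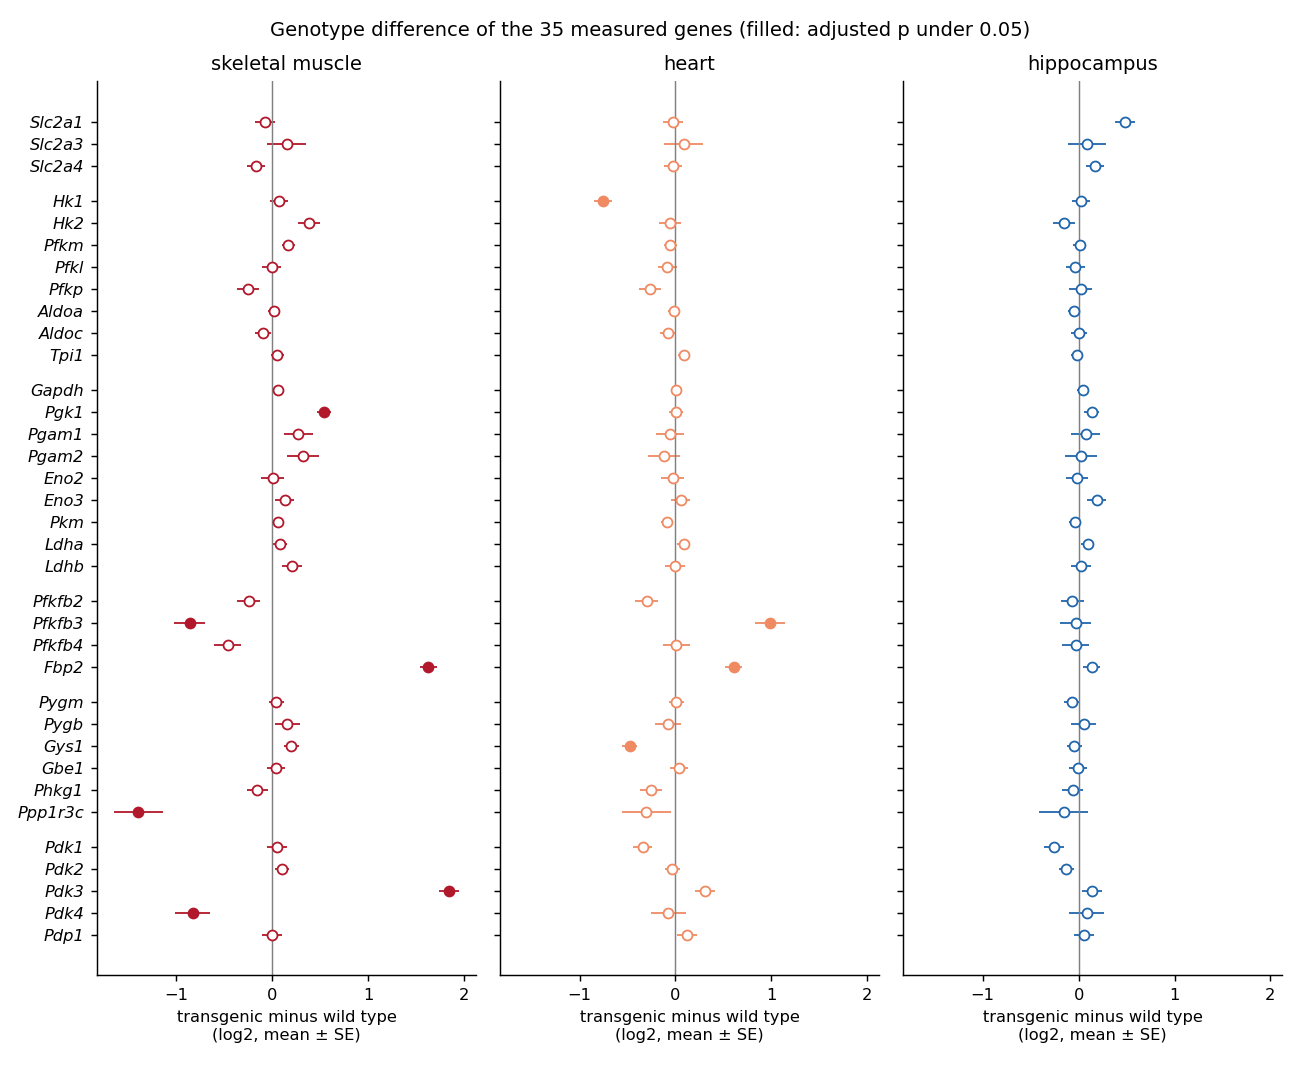
Difference between transgenic and wild type mean log2 signal for the 35 members in skeletal muscle, heart and hippocampus, with the limma standard error as a bar and filled points for adjusted p under 0.05. The filled points number 6 in skeletal muscle, 4 in heart and 0 in hippocampus, and most members lie near 0 in each tissue.

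Several of the 8 genes that passed in muscle or heart carry the letters CACGTG, the E-box bound by clock and other basic helix-loop-helix factors, or ACGTG, the core of the hypoxia response element and also part of CACGTG, in the 250 bases before the start site. The promoters of the 5 genes with such a match are shown so that its place can be read; they are from RefSeq on GRCm38.p6, 5′ to 3′ on the gene's strand and ending at the base before the start site, with the matched letters of either strand in capitals (CACGT is ACGTG on the other strand). Fbp2 (chr13:62858401-62858650, minus strand) has CACGTG from position -42, and 1 of 2 promoters of Pfkfb3 (chr2:11502091-11502340, minus) has it from -53. The other Pfkfb3 promoter (chr2:11553930-11554179, minus) has ACGTG from -60, and Pdk3 (chrX:93832151-93832400, minus) has it from -53. Ppp1r3c (chr19:36736605-36736854, minus) has CACGTG from -104 and ACGTG from -189, and Pgk1 (chrX:106186850-106187099, plus) has ACGTG from -150 and from -131.
Fbp2: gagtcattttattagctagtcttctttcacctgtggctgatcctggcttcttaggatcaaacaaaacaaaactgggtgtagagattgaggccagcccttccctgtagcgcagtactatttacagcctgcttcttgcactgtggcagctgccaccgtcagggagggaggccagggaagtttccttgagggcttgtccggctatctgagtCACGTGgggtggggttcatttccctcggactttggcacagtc
Pfkfb3, first promoter: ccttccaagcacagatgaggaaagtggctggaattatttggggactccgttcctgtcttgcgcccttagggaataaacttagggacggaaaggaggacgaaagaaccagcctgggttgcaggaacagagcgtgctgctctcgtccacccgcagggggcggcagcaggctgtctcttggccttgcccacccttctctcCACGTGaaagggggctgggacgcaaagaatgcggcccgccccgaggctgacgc
Pfkfb3, other promoter: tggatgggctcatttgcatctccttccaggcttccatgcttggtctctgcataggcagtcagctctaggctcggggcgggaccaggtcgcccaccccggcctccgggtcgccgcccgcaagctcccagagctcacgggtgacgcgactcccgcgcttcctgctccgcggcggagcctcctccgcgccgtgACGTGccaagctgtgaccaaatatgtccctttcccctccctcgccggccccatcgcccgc
Pdk3: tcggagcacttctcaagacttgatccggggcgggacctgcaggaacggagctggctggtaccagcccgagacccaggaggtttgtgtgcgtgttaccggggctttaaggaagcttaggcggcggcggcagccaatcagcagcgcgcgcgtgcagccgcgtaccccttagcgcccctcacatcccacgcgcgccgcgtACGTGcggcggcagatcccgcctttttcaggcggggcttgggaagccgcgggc
Ppp1r3c: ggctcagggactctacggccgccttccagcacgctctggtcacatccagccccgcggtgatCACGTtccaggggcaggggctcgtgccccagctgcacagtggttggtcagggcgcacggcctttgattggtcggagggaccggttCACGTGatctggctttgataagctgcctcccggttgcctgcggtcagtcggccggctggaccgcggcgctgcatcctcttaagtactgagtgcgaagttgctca
Pgk1: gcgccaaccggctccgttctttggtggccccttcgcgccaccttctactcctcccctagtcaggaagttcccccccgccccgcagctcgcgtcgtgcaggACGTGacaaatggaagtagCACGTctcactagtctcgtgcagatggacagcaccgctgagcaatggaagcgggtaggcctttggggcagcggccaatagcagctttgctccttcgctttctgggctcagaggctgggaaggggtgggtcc

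Pdk4, Gys1 and Hk1 have neither motif in that window. Over the 46 promoters of the 32 members found in the RefSeq table, CACGTG occurred in 7 (15.2%) and ACGTG in 20 (43.5%), beside 6.02% and 16.6% of all 32841 promoters of the same length. Counted by gene, 7 of the 32 members carry CACGTG and 16 carry ACGTG. Members that did not pass in muscle or heart, such as Ldha, carry these letters too. Whether a match is more frequent among the genes that passed was not tested. GTAAACA, a FOXO element, occurred in 1 of the 46 (2.17%, Aldoc) beside 3.17% of all promoters. Both strands were searched. Genes that rose (Fbp2, Pdk3, Pgk1) and genes that fell (Ppp1r3c, Pfkfb3) in skeletal muscle both carry a match, and a match is a run of letters, not a binding site.

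In heart, the transgenic arrays had less RNA of the hexokinase Hk1 and of the glycogen synthase Gys1 and more of Pfkfb3 and Fbp2. These 4 of 35 members passed the test, 11.4% of the members beside 4.48% of all genes, with 2 upward (2.04% of all genes) and 2 downward (2.44%). The median difference of the members was -0.03, beside 0.00 over all genes. The groups did not overlap in 8 members (22.9%, 3 above and 5 below), a share close to the 22.1% of all genes (10.7% above and 11.5% below).

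Hk1, the housekeeping hexokinase that binds mitochondria, read 7.37, 7.40 and 7.56 on the wild type heart arrays and 6.66, 6.64 and 6.77 on the transgenic ones. Every transgenic array was lower than every wild type array, and the gene fell by 0.75 ± 0.09, 1.68-fold (limma adjusted p = 4.34e-04). Gys1, which lengthens glycogen chains in muscle, read 8.58, 8.57 and 8.66 in wild type and 8.22, 8.04 and 8.11 in transgenic heart, a fall by 0.48 ± 0.08, 1.39-fold (limma adjusted p = 0.00258). Pfkfb3 read 3.35, 3.27 and 3.43 in wild type and 3.96, 4.49 and 4.56 in transgenic heart. Its wild type signal was less than 1 unit above the array medians, and it rose by 0.99 ± 0.16, 1.98-fold (limma adjusted p = 0.00318). Fbp2 read 5.35, 5.57 and 5.27 in wild type and 6.07, 6.07 and 5.87 in transgenic heart, a rise by 0.61 ± 0.09, 1.52-fold (limma adjusted p = 0.00136).

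With the 6 heart arrays alone in the fit, none of the 4 passed: limma adjusted p was 0.0624 for Hk1, 0.117 for Gys1, 0.103 for Pfkfb3 and 0.119 for Fbp2. That fit called 0.165% of all genes in heart. Of the members that did not pass, Pdk1, a kinase known as a hypoxia target, had all transgenic arrays below the wild type ones, with a difference of -0.34 ± 0.10 (limma adjusted p = 0.0935), and Pdk3 had all of them above, with 0.31 ± 0.11 (limma adjusted p = 0.147). The heart lactate dehydrogenase subunit Ldhb (0.00), Slc2a4 (-0.02), Pygm (0.01), Hk2 (-0.06) and Pdk4 (-0.07) had differences of at most 0.07 in size.

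The size or sign of the genotype difference depended on the tissue in 6 members (17.1%, beside 5.66% of all genes) by a moderated F test of the interaction of genotype with the 3 tissues: Fbp2, Pdk3, Pfkfb3, Hk1, Gys1 and Pgk1. The same 6 passed the test of the heart difference minus the skeletal muscle difference, 17.1% beside 3.74% of all genes. For Pfkfb3 the signs were opposite, lower in transgenic muscle and higher in transgenic heart, and heart minus muscle came to 1.85 ± 0.23 (limma adjusted p = 4.22e-04). For Fbp2, which rose in both, the heart difference was smaller by 1.02 ± 0.13 (limma adjusted p = 4.22e-04).

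The difference of Pdk3 was 1.53 ± 0.15 smaller in heart (limma adjusted p = 9.08e-05). That of Pgk1 was 0.53 ± 0.11 smaller, and the gene read 8.82 to 8.91 in wild type and 8.78 to 8.93 in transgenic heart (limma adjusted p = 0.0148, and 0.0745 with the skeletal muscle and heart arrays alone). Hk1 read 3.93, 3.93 and 4.04 in wild type and 4.18, 3.78 and 4.15 in transgenic skeletal muscle, where the groups overlapped, and its heart minus muscle value was -0.82 ± 0.13 (limma adjusted p = 0.00356). Gys1 read 10.29, 10.23 and 10.08 in wild type and 10.44, 10.36 and 10.40 in transgenic muscle, slightly upward, against a fall in heart, which gave -0.68 ± 0.11 (limma adjusted p = 0.00307). For Ppp1r3c and Pdk4, which passed in skeletal muscle alone, the interaction did not pass (limma adjusted p = 0.108 and 0.104) with all arrays, beside heart differences of -0.30 and -0.07. That result depended on the settings: with probe sets of 1 symbol alone the interaction passed for both (limma adjusted p = 0.0413 for Ppp1r3c and 0.0424 for Pdk4), as it did with the mean of a gene's probe sets (0.0367 and 0.0382). Without transgenic muscle array 3, Ppp1r3c passed the interaction (limma adjusted p = 0.0192) and the test of heart minus muscle (0.0293). The interaction of Pgk1 did not pass without wild type muscle array 1 or 3 or without transgenic muscle array 3, with limma adjusted p of 0.0604, 0.0563 and 0.0596. Nor did it pass after quantile normalization (0.0552) or with the replicate number within each tissue as a fixed block (0.14), against 0.0214 with all arrays as deposited. Of the 3 Pgk1 probe sets 2 passed the interaction, with limma adjusted p from 0.0214 to 0.0512 over the 3.

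In hippocampus no member passed, and neither did any gene on the array (0%), although 962 genes (5.12%) had an unadjusted limma p under 0.05. Among the members 2 had such a p. Slc2a1, the glucose transporter of the blood-brain barrier and astrocytes, read 9.17, 9.29 and 9.45 in wild type and 9.62, 9.78 and 9.97 in transgenic hippocampus. All 3 transgenic arrays were higher, and the difference of 0.49 ± 0.11 had an unadjusted limma p of 3.73e-04 and an adjusted p of 0.467. Pdk1 read 5.87, 6.04 and 6.20 in wild type and 5.76, 5.79 and 5.79 in transgenic hippocampus, a difference of -0.26 with a limma adjusted p of 0.917 (unadjusted limma p 0.0237). The groups did not overlap in 6 members, 17.1% beside 14.6% of all genes. The differences of all members ran from -0.26 to 0.49 with a median of 0.01.

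The wild type tissues differed far more than the genotypes, and the isozymes of a step were often highest in different tissues. By the limma test, 31 of 35 members differed between heart and skeletal muscle (10 higher and 21 lower in heart, beside 49% of all genes, 33.5% higher and 15.5% lower), 32 between hippocampus and skeletal muscle (13 higher and 19 lower in hippocampus, beside 86.1%, 75.2% and 10.9%) and 31 between hippocampus and heart (14 higher and 17 lower, beside 85.6%, 72.3% and 13.2%). Directions between tissues depend on the scaling of the arrays, because the deposited hippocampus signals are higher as a whole. The median gene was 0.73 higher in hippocampus than in skeletal muscle, 0.65 higher than in heart, and 0.10 higher in heart than in skeletal muscle.

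The share of higher calls among all called probe sets was 89.6% for hippocampus against muscle as deposited, 26.4% after centring each array on its median and 43.3% after quantile normalization. For hippocampus against heart these shares were 87.7%, 26% and 44.2%, and for heart against muscle 66.1%, 44.0% and 50.7%. Of the 35 members, 31, 30 and 26 passed in the same direction under all 3 scalings for heart against muscle, hippocampus against muscle and hippocampus against heart. The genes named next for a tissue difference are among these unless stated.

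**Figure D3:**
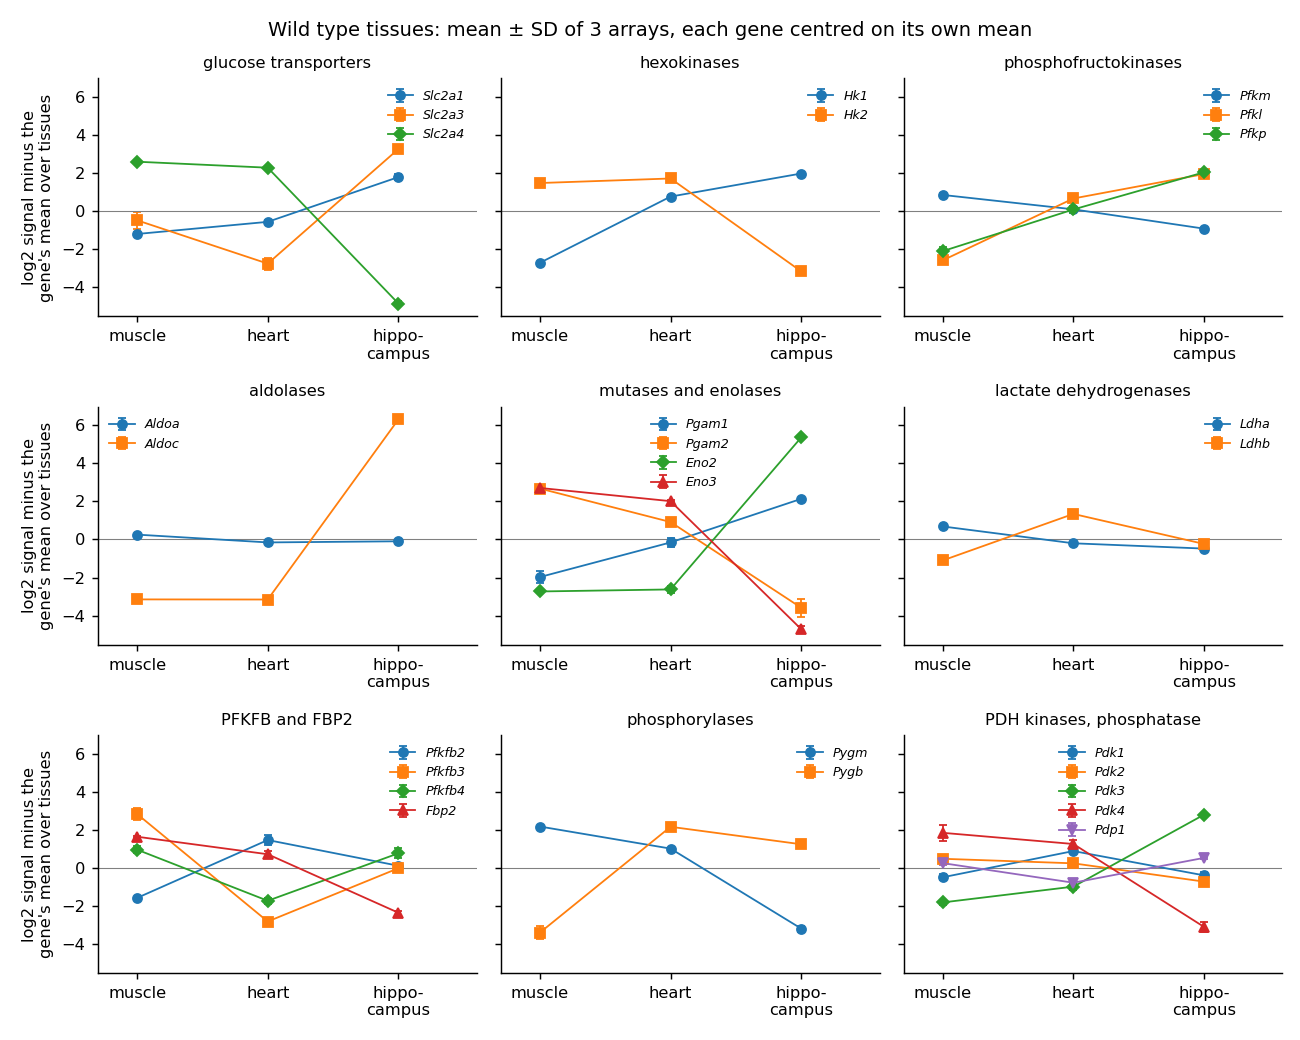
Mean log2 signal of the 3 wild type tissues for the isozymes of 9 steps, each gene centred on its own mean over the tissues, with the SD of 3 arrays as a bar; the heights of different genes are not compared. Hk2, Slc2a4, Pgam2, Eno3 and Pygm are lowest in hippocampus and Aldoc and Eno2 are highest there, as deposited.

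At the entry of glucose, the insulin-responsive transporter Slc2a4 read 9.78 ± 0.04 (mean ± SD, n = 3) in skeletal muscle, 9.47 ± 0.04 in heart and 2.34 ± 0.11 in hippocampus, the last below that tissue's array median. The neuronal transporter Slc2a3 was highest in hippocampus, with 4.90 ± 0.46, 2.63 ± 0.31 and 8.64 ± 0.08, and Slc2a1 rose from 6.32 ± 0.11 over 6.96 ± 0.11 to 9.30 ± 0.14. Hk1 was 3.97 ± 0.06 in skeletal muscle, 7.44 ± 0.10 in heart and 8.65 ± 0.02 in hippocampus; the step from heart to hippocampus did not hold under every scaling. Hk2 was 7.78 ± 0.15, 8.02 ± 0.07 and 3.14 ± 0.15, with no difference between skeletal muscle and heart that passed (limma adjusted p = 0.122). The muscle phosphofructokinase Pfkm fell from 11.20 ± 0.13 in skeletal muscle over 10.44 ± 0.04 in heart to 9.43 ± 0.02 in hippocampus, while the platelet form Pfkp went from 4.09 ± 0.20 over 6.28 ± 0.18 to 8.23 ± 0.02.

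Further down the pathway, the brain aldolase Aldoc read 11.26 ± 0.09 in hippocampus and 1.81 in both striated muscles, below their array medians, a hippocampus minus muscle difference of 9.45 ± 0.09 (SE). The neuronal enolase Eno2 read 10.25 ± 0.07 in hippocampus and 2.17 ± 0.08 in skeletal muscle, whereas the muscle enolase Eno3 read 3.71 ± 0.17 and 11.13 ± 0.06. The muscle mutase Pgam2 and the ubiquitous Pgam1 were ordered oppositely, at 10.14 ± 0.11, 8.38 ± 0.08 and 3.88 ± 0.47 for Pgam2 and 6.36 ± 0.32, 8.17 ± 0.26 and 10.46 ± 0.05 for Pgam1 in skeletal muscle, heart and hippocampus. Ldha was highest in skeletal muscle (11.96 ± 0.04) and Ldhb, the lactate-oxidising subunit, in heart (10.19 ± 0.05). Gapdh, often used as a reference gene, read 12.44, 12.42 and 12.45 as tissue means of its brightest probe set, whose order changed with the scaling. Of the 17 probe sets with its symbol alone, 11 passed for heart against skeletal muscle (differences from -0.41 to 0.04). For hippocampus against skeletal muscle 13 passed (from -0.47 to 0.01). The mean of its probe sets also passed, with -0.22 in heart and -0.26 in hippocampus against skeletal muscle (limma adjusted p = 0.00973 and 0.00179). Gapdh and Pgam1 have near-identical copies that may share signal.

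Glycogen genes were highest in skeletal muscle with 1 exception. Pygm, the muscle phosphorylase, read 11.91 ± 0.01 in skeletal muscle, 10.75 ± 0.04 in heart and 6.55 ± 0.15 in hippocampus, while the brain form Pygb read 4.74 ± 0.35, 10.30 ± 0.05 and 9.38 ± 0.03. Gys1 (10.20, 8.60 and 6.06), the branching enzyme Gbe1 (7.25, 6.76 and 5.14), Phkg1 (9.26, 5.06 and 5.29) and Ppp1r3c (9.88, 8.31 and 7.37) were highest in skeletal muscle, where mean log2 signals are given in the same order. The PFKFB isozymes divided between the striated muscles: Pfkfb3 read 8.99 ± 0.33 in skeletal muscle and 3.35 ± 0.08 in heart, and Pfkfb2, the insulin-activated cardiac form, read 5.04 ± 0.03 and 8.08 ± 0.27. Among the pyruvate dehydrogenase kinases, Pdk4 was 10.64 ± 0.40 in skeletal muscle and 5.70 ± 0.24 in hippocampus, and Pdk3 was 2.86 ± 0.12 and 7.46 ± 0.11. The order of the 3 tissue means was the same in both genotypes in 28 of 35 members; among the other 7, Pdk3 stood lower in skeletal muscle than in heart in wild type arrays and higher in transgenic ones (4.70 and 3.99), and Pdk4 changed the other way (9.81 and 9.98).

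Outside the 38 genes, 54 further genes of glucose, glycogen and pyruvate metabolism were followed, of which 48 were measured. In skeletal muscle 9 of the 48 passed (18.8%, beside 11.5% of all genes; 3 upward and 6 downward), in heart 8 (16.7% beside 4.48%; 2 upward and 6 downward) and in hippocampus 0 (2 had an unadjusted limma p under 0.05); the interaction passed in 11 (22.9% beside 5.66%). With the arrays of 1 tissue alone 5 passed in skeletal muscle and 0 in heart, and without wild type or transgenic heart array 3 the heart count was 5. In skeletal muscle Stbd1, which tethers glycogen for its delivery to lysosomes, rose by 1.46 ± 0.12 (limma adjusted p = 1.83e-06), with 3.45, 3.25 and 3.41 in wild type and 4.62, 4.80 and 5.08 in transgenic arrays. Gaa, the lysosomal enzyme that degrades glycogen, fell by 1.21 ± 0.07 (limma adjusted p = 1.34e-07), with 8.82, 8.84 and 8.97 against 7.61, 7.68 and 7.72. The pyruvate carboxylase Pcx fell by 1.08 ± 0.08, the glycogen phosphatase laforin, Epm2a, by 1.20 ± 0.11, the phosphorylase kinase subunit Phkb by 0.40 ± 0.07 and the pyruvate dehydrogenase phosphatase regulator Pdpr by 0.53 ± 0.09. Their limma adjusted p ran from 9.42e-07 to 0.00105, and Phkb and Pdpr did not pass with skeletal muscle arrays alone.

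In heart Gaa fell by 0.58 ± 0.07, Phka1, the muscle subunit of phosphorylase kinase, by 0.84 ± 0.11, Pcx by 0.56 ± 0.08 and Gpd1l by 0.70 ± 0.12, and Stbd1 rose by 0.58 ± 0.12, all 5 with limma adjusted p between 4.44e-04 and 0.014. The Stbd1 signal in heart, 2.34 in wild type and 2.92 in transgenic arrays, was near the array medians, and its rise did not pass without wild type heart array 2 or 3 or transgenic heart array 3. The call of Gpd1l was lost with the mean of its probe sets. Ugp2, which makes the UDP-glucose that glycogen synthase uses, moved in opposite directions: it rose by 0.37 ± 0.09 in skeletal muscle (limma adjusted p = 0.0136) and fell by 0.56 ± 0.09 in heart (limma adjusted p = 0.00215), with an interaction adjusted p of 0.00103. Gys1 had the same pair of signs, with the fall in heart alone past the threshold. The rise of Ugp2 in muscle did not pass without wild type muscle array 2 or 3 or with skeletal muscle arrays alone (limma adjusted p = 0.102). Its fall in heart did not pass with heart arrays alone (limma adjusted p = 0.128). In hippocampus the smallest limma p among the 48 was that of the glycogen targeting subunit Ppp1r3g, with a difference of 0.56 and an adjusted p of 0.467.

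**Figure D4:**
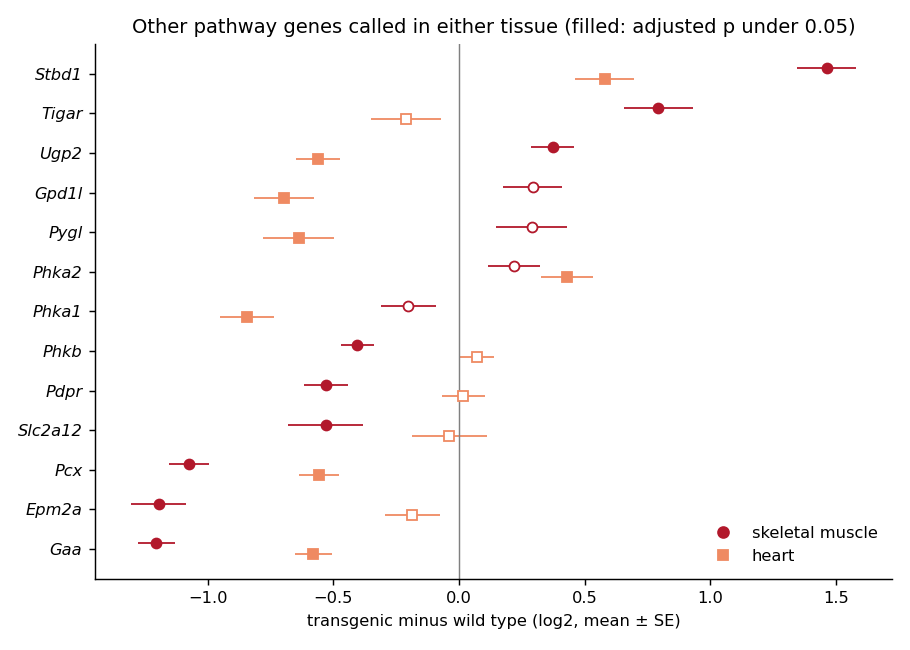
Difference between transgenic and wild type mean log2 signal, with the limma standard error, for the 13 further genes of glucose, glycogen and pyruvate metabolism that passed in skeletal muscle (circles) or heart (squares), with filled points for adjusted p under 0.05. Gaa and Pcx are lower and Stbd1 is higher in both striated muscles, in heart with a call lost when heart array 2 or 3 of the wild type or array 3 of the transgenic group was left out, and Ugp2 is higher in skeletal muscle and lower in heart.

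Markers of cell types were read beside these results. Fast glycolytic fibre markers, the cells in which most muscle glycolysis takes place, had array means of 11.20 to 11.31 in wild type and 11.25 to 11.27 in transgenic muscle, and 0 of 9 passed. Slow fibre markers ranged from 8.39 to 8.54 and from 7.97 to 8.87, with 1 of 8 upward. Endothelial markers were lower in the transgenic arrays of both striated muscles: their array means were 6.53 to 6.69 in wild type and 5.94 to 6.33 in transgenic muscle (4 of 9 fell, 0 rose), and 7.72 to 7.79 and 7.21 to 7.46 in heart (2 of 9 fell, 0 rose). Adipocyte markers had array means of 4.39 to 5.14 in wild type and 5.35 to 5.80 in transgenic muscle, where 1 of 5 rose, and at most 2.25 in heart, below the array medians. In skeletal muscle 12.5% of the slow fibre, 44.4% of the endothelial and 20% of the adipocyte markers passed, beside 11.5% of all genes in either direction. In heart 22.2% of the endothelial markers passed, beside 4.48% of all genes. The part of endothelial and fat cells in the gene differences was not tested, and in bulk tissue fewer cells of a type and less RNA per cell cannot be told apart.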

How the data were processed

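The deposited values are 1 log2 signal per probe set and array, which the authors computed by RMA with R 2.10.0 (the submitters' processing notes). RMA includes background correction and quantile normalization; whether the 3 tissues were normalized together is not given in the sources used here. The probe annotation gave 21153 of 35382 probe sets 1 gene symbol, 1867 several and 12362 none, and a gene was read from its probe set with the highest mean over the 18 arrays. All 35 measured members matched the RefSeq gene table by Entrez ID, and 32 of them had an entry in the RefSeq promoter table. The log2 values were fitted as deposited with limma 3.58.1 in R 4.3.3, with 6 group means (12 residual and 2.67 prior degrees of freedom), and p-values were adjusted by Benjamini-Hochberg over all probe sets, with a threshold of 0.05. The fit was run on simulated arrays with independent normal noise and known shifts. That checks the code and cannot show whether calls from 3 arrays per group hold between mice. Members and lists were chosen with earlier results of these data known. Any member may be named; from the other lists, up to 6 genes with the smallest adjusted p per comparison are named, with their values where they also passed elsewhere. Alternatives were the arrays of 1 tissue alone, the replicate number as a block, no dim probe sets, probe sets with 1 symbol alone, median centring, quantile normalization, a trended robust prior, array weights, the mean of a gene's probe sets, thresholds of 0.01 and 0.1, and leaving out each array.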

Additional observations from a re-analysis of the deposited data

Results flagged for a closer look

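For 6 members the genotype difference itself differed between tissues by limma's moderated F test of the interaction. The adjusted p was 2.61e-05 for Pdk3 and 3.33e-05 for Fbp2. Pdk3 rose in skeletal muscle, and its differences in heart and hippocampus did not pass; Fbp2 rose more in skeletal muscle than in heart, and its difference in hippocampus did not pass. It was 8.15e-04 for Pfkfb3, which fell in skeletal muscle and rose in heart. It was 0.00312 for Hk1 and 0.00535 for Gys1, both of which fell in heart with no such fall in skeletal muscle. For Pgk1, which rose in skeletal muscle, it was 0.0214, and 2 of its 3 probe sets passed.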

How the results depend on the processing

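With the arrays of 1 tissue alone, 3 members passed in skeletal muscle (3.33% of all genes) and 0 in heart (0.165%), against 6 and 4 with all arrays; that fit has fewer arrays to estimate the spread, and it was not run for the interaction over 3 tissues. Leaving out each array gave 6 to 7 members in skeletal muscle, 4 in heart, 0 in hippocampus, 5 to 7 for the interaction, 6 to 7 for heart minus muscle, and 29 to 31, 31 to 33 and 31 to 32 for the wild type tissues. All 10 genotype calls of members were kept in each of those 18 fits. With array weights, no dim probe sets, median centring or quantile normalization, no genotype call of a member in skeletal muscle or heart was lost. With the mean of a gene's probe sets, or probe sets with 1 symbol alone, 9 members had an interaction, with Ppp1r3c, Pdk4 and Slc2a1 added. These settings, and no dim probe sets, gave 8 members in skeletal muscle, with Hk2 and Pfkfb4 added. Each of these fits adjusted over fewer probe sets or genes, and the share of all genes called in them was not counted. The further pathway genes also rose under these settings, from 9 to 12 in skeletal muscle and from 11 to 12 for the interaction. Deviations of same-numbered arrays from their group means were nearly uncorrelated over all probe sets (-0.05 to 0.05). Such values cannot show whether these arrays came from the same mice, which the labels do not say. A fixed block of the replicate number within each tissue pairs same-numbered wild type and transgenic arrays. The labels give no basis for this pairing, and the block leaves fewer residual degrees of freedom. With it 5 members passed in skeletal muscle, 4 in heart, 0 in hippocampus, 4 for the interaction and 5 for heart minus muscle. For the further pathway genes it gave 5 in heart and 7 for the interaction, against 8 and 11. The members that did not pass with the block were Pdk4 in skeletal muscle (limma adjusted p = 0.0545), Pgk1 (0.14) and Gys1 (0.0532) for the interaction and Pgk1 for heart minus muscle (0.104); of the further genes named, Stbd1 in heart (0.0642) and, in the muscle or heart lists, Acot2, Higd1a and Egln3 did not. The 50 calls of members and of genes in the further lists include some genes not named here. Over the alternatives, 1315 values of these calls kept their side of the threshold and 79 did not. The sign of the difference changed in 0, while the F test of the interaction gives no sign.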

Other observations

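A list of 19 hypoxia-responsive genes outside glycolysis, all measured, was read because several glycolytic enzymes are hypoxia targets. In skeletal muscle 5 of 19 passed the limma test (26.3%, beside 11.5% of all genes), 2 upward and 3 downward. The adenylate kinase Ak4 rose by 2.27 ± 0.23, while the collagen hydroxylase subunits P4ha1 and P4ha2 fell by 1.02 ± 0.12 and 0.61 ± 0.10 and the vascular growth factor Vegfa fell by 0.83 ± 0.11. Higd1a rose by 0.36 ± 0.09, a call lost without wild type muscle array 2 or 3 or transgenic muscle array 2 or 3. In heart 3 passed (15.8% beside 4.48%): Vegfa fell by 0.85 ± 0.11 and the oxygen sensor Egln3 by 0.68 ± 0.13, and Bhlhe40, which is also a clock gene, rose by 0.77 ± 0.13. With heart arrays alone 0 passed, and without dim probe sets, with probe sets of 1 symbol alone or with the mean of a gene's probe sets 5 did. In hippocampus 0 of 19 passed by limma, and 0 had an unadjusted p under 0.05.

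Of 18 fasting and PPAR-responsive genes, 15 were measured, since Pdk4 is a fasting gene. In skeletal muscle 3 passed (20% beside 11.5% of all genes). Fbxo32, a ubiquitin ligase of muscle atrophy, fell by 1.15 ± 0.16 and the nuclear receptor Ppard by 0.55 ± 0.09. The thioesterase Acot2 rose by 0.58 ± 0.15, with overlapping groups, and lost its call without wild type muscle array 1 or 2 or transgenic muscle array 1 or 2. In heart 0 of 15 passed by limma (4 had an unadjusted p under 0.05; 1 to 2 passed without dim probe sets, with probe sets of 1 symbol alone, with the mean of probe sets, or without wild type muscle array 3, transgenic muscle array 3 or transgenic heart array 1), and in hippocampus 0 (1 had).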
